A study of Mus musculus with 4 samples.

Results

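The effect of L-ascorbic acid (AA, vitamin C) was examined in female mouse embryonic stem cells (ESCs) that were also exposed to GSK-J4, an inhibitor of the H3K27 demethylases Utx and Jmjd3. The LF2 ESCs, of strain 129/J, were grown on feeder cells, passaged without feeders and then treated for 24 hr. Both libraries compared received GSK-J4 at 10 μM, and they differed in AA at 50 μg/ml (AA+GSK-J4) or its vehicle PBS (PBS+GSK-J4). The series holds 4 libraries in all, and the remaining 2, AA+DMSO and PBS+DMSO, carried the vehicle of GSK-J4 in place of the inhibitor. Each condition is 1 library from 1 cell line, so no difference has a replicate check and no p-value is given. Of 9762 genes with a value in all 4 libraries, the 9165 that reached 1 FPKM (fragments per kilobase of transcript, scaled to the mapped reads of the library) in PBS+GSK-J4 or AA+GSK-J4 were kept.

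AA is a cofactor that keeps the iron of 2-oxoglutarate dependent dioxygenases in its reduced form. This enzyme family includes the TET enzymes that oxidise 5-methylcytosine, the JmjC histone demethylases, and the prolyl hydroxylases that mark the α subunits of hypoxia-inducible factor (HIF) for degradation by the VHL ubiquitin ligase. HIF is known to activate genes of glucose uptake, glycolysis and lactate export, and its targets are transcribed to some extent in cultured ESCs. GSK-J4 is an ester form of a compound that competes with 2-oxoglutarate at the JmjC demethylases.

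With AA, several genes of the glycolytic branch of the HIF response were lower than without it, but not all. The hexokinase genes *Hk1* and *Hk2* had centred log2 ratios of 0.16 and 0.01. Of the HIF target list, 10 of 36 kept genes were at least 1.5-fold lower in AA+GSK-J4 and 1 was higher, beside 2.32% lower and 1.8% higher among all kept genes. The median centred log2 ratio of the list was -0.42, against 0.00 for all genes. This list was chosen with earlier results of these data known, so the counts are a description and not a test. *Ldha*, which encodes the lactate dehydrogenase subunit that reduces pyruvate, was 2.64-fold lower, and *Slc16a3*, which encodes the lactate exporter MCT4, was 4.20-fold lower. The lists of citric acid cycle, oxidative phosphorylation, ribosomal protein and naive pluripotency genes had medians from -0.04 to 0.10. Single naive pluripotency genes lay further from 0, between -0.68 and 0.45.

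All ratios are given as the log2 of (FPKM + 1) in AA+GSK-J4 over (FPKM + 1) in PBS+GSK-J4, less the median over all kept genes. The added 1 understates the change of genes with low values. The AA and PBS libraries stand in separate deposited tables, and the median log2 ratio before centring was -0.02. Summed over the genes with a value, FPKM was 275154 in PBS+GSK-J4 and 270780 in AA+GSK-J4. The number of reads is not given, but among low FPKM values single reads remain visible as regular steps, which over the 4 libraries gave a depth of AA+GSK-J4 of 0.819 times that of PBS+GSK-J4 (0.817 in the next best solution). All 8 ESC markers had values above 0 in every library, and their summed FPKM was 1352 in PBS+GSK-J4 and 1217 in AA+GSK-J4. Most of that difference lay in *Tdgf1*, at 304 and 187, whereas *Pou5f1* had 510 and 480 and *Sox2* 155 and 163. Of 26 markers of mouse embryonic fibroblast feeders, 14 had a value, none at 0, with a summed FPKM of 122 without and 108 with AA. Among trophoblast and extraembryonic endoderm markers, 7 of 20 had a value, and the sums were 124 and 128. In bulk RNA, fewer cells of a type and less RNA per cell cannot be told apart.

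How far a single ratio can be read depends on the expression level. In the lowest decile of kept genes, with a mean FPKM of 0.507 to 1.60 over both libraries, the middle 95% of ratios ran from -1.02 to 1.01. In the highest decile, with a mean FPKM of 49.0 and above, it ran from -0.30 to 0.27. With AA, 165 genes were higher by 1.5-fold or more and 213 were lower by as much, and 73.5% of these lay in the lowest 3 deciles of expression. At least 2-fold, 49 genes (0.535%) were higher and 53 (0.578%) lower. Among the 2455 genes with a mean FPKM of at least 20, a level chosen after the values were seen, 6 (0.244%) were higher by 1.5-fold or more and 13 (0.53%) lower, and 6 of the 13 were on the HIF list.

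**Figure D1:**
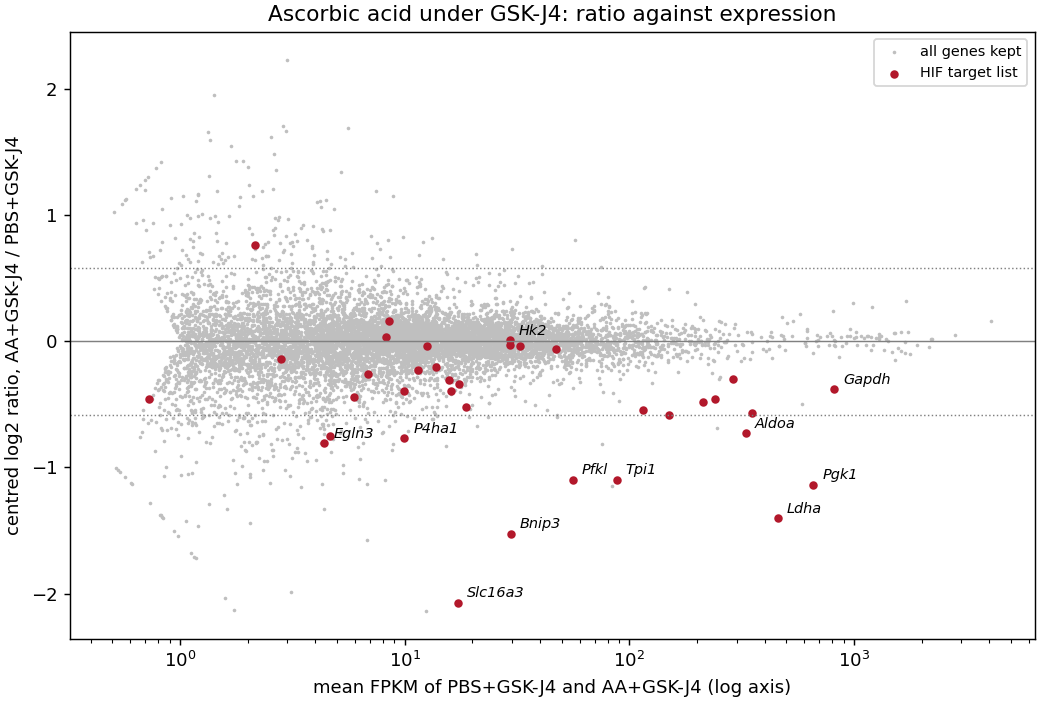
Each grey point is a gene, with its mean FPKM over PBS+GSK-J4 and AA+GSK-J4 on a log axis and its centred log2 ratio on the vertical axis, and red points are the 36 kept genes of the HIF target list. The dotted lines mark 1.5-fold, and *Slc16a3*, *Bnip3*, *Ldha*, *Pgk1*, *Tpi1* and *Pfkl* lie at -1.10 or below at expression levels where most genes lie within 0.3 of 0.

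The promoters of 4 genes with the lowest ratios on the HIF list are shown because the sequence letters to which HIF is known to bind can be read in them. These are the 250 bases before the RefSeq start site nearest to the deposited locus (GRCm38.p6, 5′ to 3′ along the gene), with capitals for ACGTG or GCGTG on either strand (CACGT or CACGC when read on the strand shown, so that CACGTG holds 2 overlapping matches).
*Slc16a3* (chr11:120948817-120949066, plus strand): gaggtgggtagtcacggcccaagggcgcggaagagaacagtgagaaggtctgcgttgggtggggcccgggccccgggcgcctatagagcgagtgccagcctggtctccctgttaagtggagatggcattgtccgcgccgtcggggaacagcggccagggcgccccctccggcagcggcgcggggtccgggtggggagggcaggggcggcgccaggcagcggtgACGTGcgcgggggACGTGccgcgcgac
*Bnip3* (chr7:138909507-138909756, minus strand): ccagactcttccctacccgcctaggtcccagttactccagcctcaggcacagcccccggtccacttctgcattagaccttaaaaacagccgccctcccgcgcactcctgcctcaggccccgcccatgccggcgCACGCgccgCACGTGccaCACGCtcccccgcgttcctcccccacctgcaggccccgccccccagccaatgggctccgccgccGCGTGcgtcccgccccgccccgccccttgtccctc
*Ldha* (chr7:46845554-46845803, plus strand): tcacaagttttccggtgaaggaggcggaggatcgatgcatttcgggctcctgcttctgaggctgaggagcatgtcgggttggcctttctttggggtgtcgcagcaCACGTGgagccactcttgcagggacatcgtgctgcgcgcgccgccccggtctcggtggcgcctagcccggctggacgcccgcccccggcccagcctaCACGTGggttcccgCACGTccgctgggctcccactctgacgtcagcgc
*Pgk1* (chrX:106186850-106187099, plus strand): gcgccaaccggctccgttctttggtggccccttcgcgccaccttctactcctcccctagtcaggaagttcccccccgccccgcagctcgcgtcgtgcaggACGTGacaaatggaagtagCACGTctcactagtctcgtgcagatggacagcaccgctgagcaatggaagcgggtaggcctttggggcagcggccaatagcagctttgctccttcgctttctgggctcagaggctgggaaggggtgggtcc

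The windows held 2 matches for *Slc16a3*, 5 for *Bnip3*, 5 for *Ldha* and 2 for *Pgk1*. RefSeq promoters were matched for 31 of the 36 HIF list genes, of which 25 (80.6%) held at least 1 match. Among the 10 list genes at least 1.5-fold lower the share was similar, at 8 (80.0%). Of all kept genes, 7062 were matched and 4301 (60.9%) held one, so these 5 letters are common in promoters of this length. A match is a description of the sequence and does not show that the factor binds there.

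The HIF list is described below by role, in groups drawn up after the values were seen. Glucose enters through facilitative transporters. The FPKM of *Slc2a1*, which encodes GLUT1, was 181 in PBS+GSK-J4 and 119 in AA+GSK-J4, a ratio of -0.58 that stops just short of 1.5-fold. For *Slc2a3*, which encodes GLUT3, the values were 320 and 256, with a ratio of -0.30. Both transporters also carry dehydroascorbate, the oxidised form of AA.

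Of the 11 glycolytic enzymes of the list, 9 had a ratio below 0 and 4 were at least 1.5-fold lower, beside 4582 and 213 of the 9165 kept genes. *Pfkl*, the liver-type phosphofructokinase that commits glucose to glycolysis, had an FPKM of 76.8 without and 34.9 with AA (chromosome 10, 77986826 to 78010158, mm10, ratio -1.10). *Aldoa*, which splits fructose bisphosphate, went from 414 to 246 (chromosome 7, 126794998 to 126800076, ratio -0.73). *Tpi1*, which interconverts the triose phosphates, went from 121 to 55.1 (chromosome 6, 124802574 to 124814258, ratio -1.10).
*Pgk1*, the first ATP-forming step, had 910 and 408 FPKM and was 2.20-fold lower (chromosome X, 106187114 to 106203774, ratio -1.14). It was among the most abundant mRNAs of the cell, where the spread between genes was narrow.
The steps on either side of it were less different. *Gapdh*, just upstream, had 927 and 703 FPKM and a ratio of -0.38. *Pgam1* had 249.5 and 176 (ratio -0.48), *Eno1* 421 and 280 (-0.57), and *Pkm*, the pyruvate kinase, 137 and 92.2 (-0.55). The hexokinases, which trap glucose in the cell, did not share this direction. *Hk2* had 29.5 and 29.3 FPKM (ratio 0.01), *Hk1* 8.06 and 8.98 (0.16), and the platelet phosphofructokinase *Pfkp* 29.9 and 28.9 (-0.03).

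Since the role groups were drawn up after the values were seen, their order is a description only. The group set up for lactate and pyruvate had the lowest median of the role groups, at -1.08 over 4 genes. It also holds *Pfkfb3*, which regulates glycolysis and does not handle pyruvate or lactate, and whose ratio is 1 of the middle 2. *Slc16a3* had an FPKM of 28.5 in PBS+GSK-J4 and 5.93 in AA+GSK-J4 (chromosome 11, 120949026 to 120959551, ratio -2.07). *Ldha* had 666 and 248 (chromosome 7, 46845700 to 46855629, ratio -1.40). *Pfkfb3*, which makes the allosteric activator of phosphofructokinase, had 6.13 and 3.18 (ratio -0.75). *Pdk1*, the kinase that restrains pyruvate dehydrogenase, had 19.8 and 15.2 FPKM and a ratio of -0.34. Nearer to 0 were *Ldhb*, with 104 and 93.3 FPKM (-0.14), and the lactate transporter *Slc16a1*, with 34.2 and 32.2 (-0.07). Glycolytic isoforms outside the list formed a set added after the values were seen. Of its 5 kept genes 4 were below 0, beside 4582 of all 9165 kept genes. The median was -0.12, with a range of -0.28 to 0.12.

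The mitochondrial members were uneven. *Bnip3*, a mitophagy receptor of the outer membrane, had 44.6 FPKM without and 14.6 with AA, 2.88-fold lower (chromosome 7, 138890693 to 138909521, ratio -1.53). Its relative *Bnip3l* had 48.4 and 45.7 (-0.06), so the pair differed at a similar level of expression. *Higd1a*, a modulator of the respiratory chain, had 22.3 and 15.03 (-0.52), and the adenylate kinase *Ak4* 14.95 and 12.7 (-0.20).

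All 5 dioxygenase genes on the list had a ratio below 0, and 2 were at least 1.5-fold lower. The same direction was seen for 32 of the 36 kept genes of the list. Of all 9165 kept genes, 4582 were below 0 and 213 were 1.5-fold lower. *Egln3*, a HIF prolyl hydroxylase that is itself induced by HIF, had 5.88 FPKM without and 2.87 with AA (-0.81). *P4ha1*, a catalytic subunit of collagen prolyl 4-hydroxylase, had 12.8 and 7.03 (-0.77), and *P4ha2* had 7.04 and 4.85 (-0.44). *Egln1* had 11.4 and 8.34 (-0.39), and the H3K9 demethylase *Kdm3a* had 18.6 and 13.7 (-0.39).
Of these role groups, drawn up after the values were seen, the secreted and stress members differed least by median. The median of these 10 genes was -0.18 and none was 1.5-fold lower. *Vegfa*, the angiogenic growth factor, had 12.8 FPKM without and 12.3 with AA (-0.04). *Ero1l*, an oxidase of disulfide bond formation, had 33.4 and 32.05 (-0.04), and *Mxi1* 8.20 and 8.30 (0.04). *Ddit4*, an inhibitor of mTORC1, had 280 and 201 (-0.46). *Car12*, a carbonic anhydrase, was the 1 member past 1.5-fold in the other direction, from 1.36 to 2.95 FPKM (0.76), a level at which ratios of this size are frequent in both directions.
Of the 42 genes listed, *Aldoc*, *Pkm2*, *Car9*, *Fam162a* and *Gpi1* were not analysed here, and *Pfkfb4* was below the FPKM minimum.

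**Figure D2:**
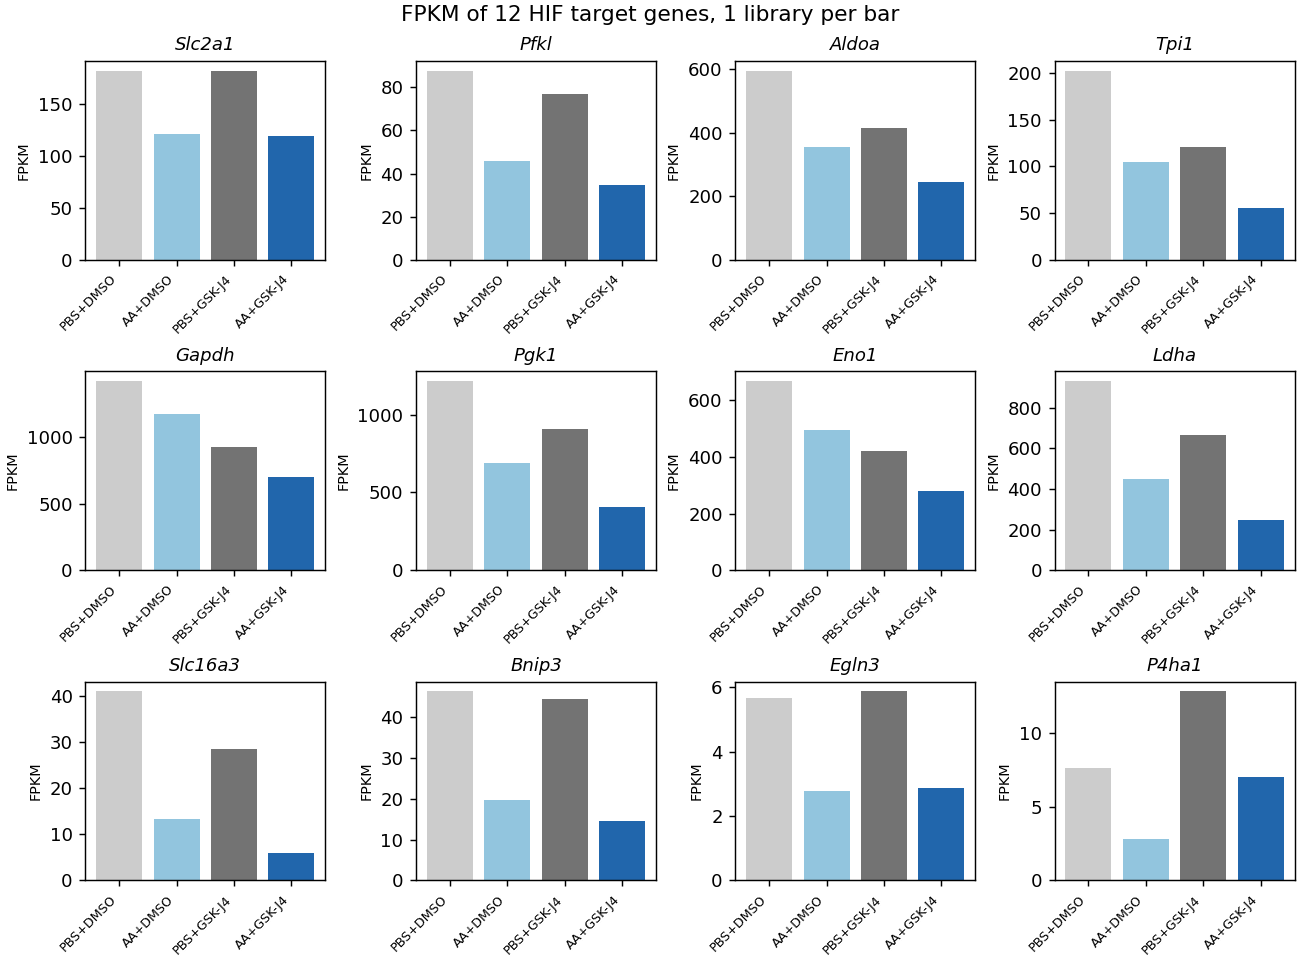
Bars give the FPKM of 12 genes of the HIF target list in PBS+DMSO, AA+DMSO, PBS+GSK-J4 and AA+GSK-J4, with 1 library per bar and no error bar. In each pair shown the AA library is lower than its PBS library. For *Ldha* it had 248 against 666 FPKM under GSK-J4 and 450 against 933 in DMSO. The 12 genes are a selection, and list members that were not lower are left out, such as *Hk1* at 8.98 against 8.06 under GSK-J4.

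The same contrast can be read in the cells without the inhibitor, which shares no library with the one under GSK-J4. Each ratio does hold 1 library from each of the deposited tables, so any difference between the tables enters both. In DMSO, 217 of 8827 genes (2.46%) were higher with AA by 1.5-fold or more and 159 (1.8%) were lower. The HIF list had a median of -0.36 there, and 10 of its 34 kept genes were at least 1.5-fold lower, all 10 of them also lower under GSK-J4. These make up 10 of the 34 genes (0.393% of 8645 kept in both) that were 1.5-fold lower in both settings. As the list was chosen with earlier results of these data known, the DMSO counts are no independent check.
*Slc16a3* had 41.0 FPKM in PBS+DMSO and 13.3 in AA+DMSO, a ratio of -1.51 against -2.07 under GSK-J4. *Ldha* had 933 and 450, a ratio of -1.003 against -1.402. *Bnip3* had 46.4 and 19.7, a ratio of -1.14 against -1.53. Of the 34 HIF list genes kept in both, 25 had a lower ratio under GSK-J4 than in DMSO, beside 49.3% of all 8645 genes. *P4ha1* was an exception, at -1.14 in DMSO and -0.77 under GSK-J4. Whether AA acted more strongly under GSK-J4 was not tested, as each ratio rests on 1 library a side.

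**Figure D3:**
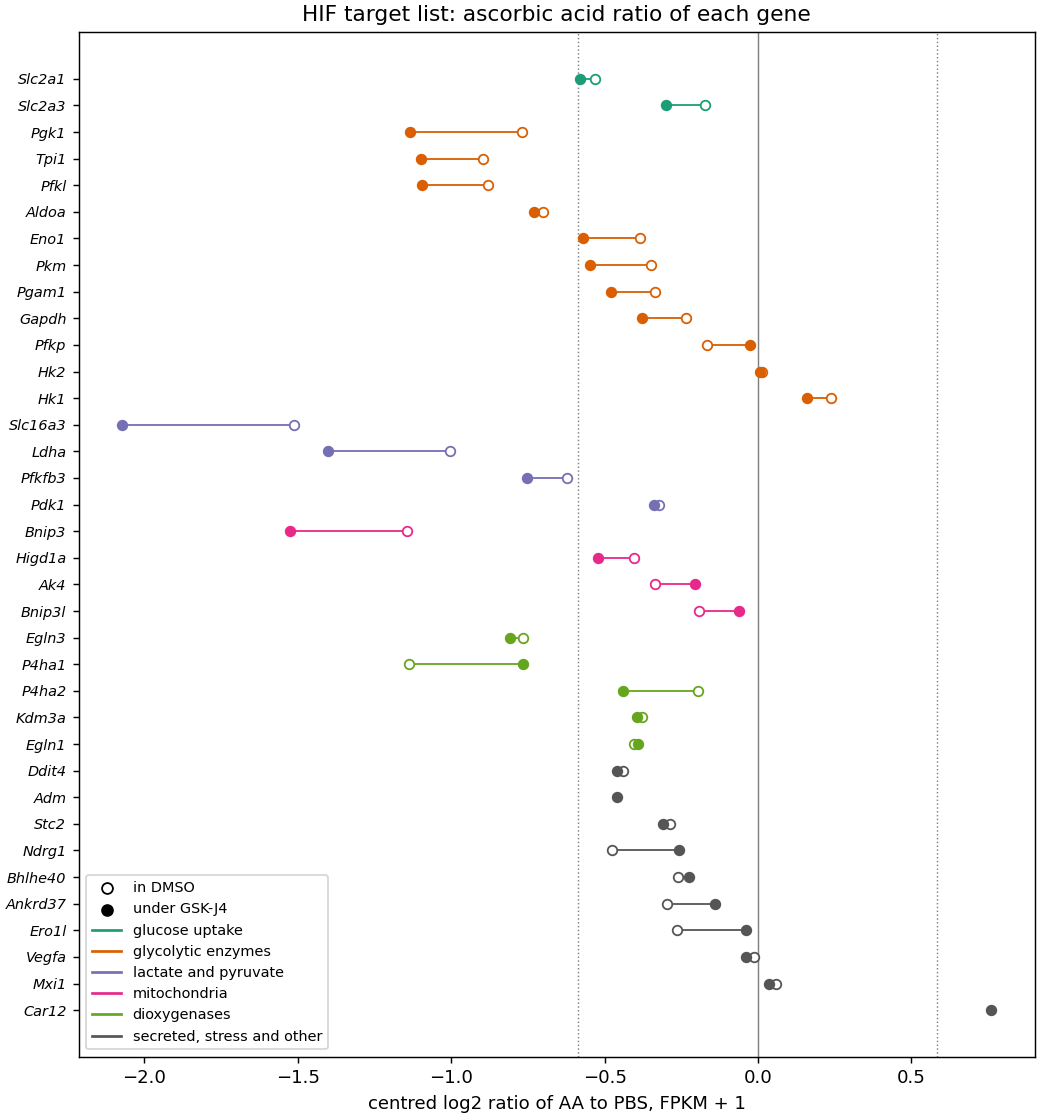
Each row is 1 of the 36 kept genes of the HIF target list, grouped by role, with its centred log2 ratio of AA to PBS in DMSO (open circle, where the gene passed the minimum there) and under GSK-J4 (filled circle). Of the 11 glycolytic members 10 lie lower under GSK-J4, such as *Pgk1* at -1.14 against -0.77. So do all 4 members of the lactate and pyruvate group, in which *Pfkfb3* is placed, and 2 of 4 mitochondrial ones. The groups were drawn up after the values were seen. The secreted and stress group had a median of -0.18 under GSK-J4 and -0.28 in DMSO, beside -0.55 and -0.35 for the glycolytic enzymes.

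The 9 genes of the HIF subunits, their hydroxylases and *Vhl*, a list added after the values were seen, had a median of 0.04. The hydroxylase gene *Egln3*, described above, was at least 1.5-fold lower and no member was higher by as much. *Hif1a*, the oxygen-regulated subunit, had 14.04 FPKM in PBS+GSK-J4 and 19.98 in AA+GSK-J4 (ratio 0.50). In DMSO it had 24.7 and 20.1 (-0.24), so the ratios had opposite signs and both fell short of 1.5-fold. *Arnt*, its constant partner, had 14.3 and 17.1 under GSK-J4 (0.26), *Epas1* 6.26 and 5.64 (-0.11) and *Vhl* 9.94 and 10.02 (0.03). Other carbon pathways, also added after the values were seen, lay near 0. Of 14 genes of pyruvate dehydrogenase and the citric acid cycle none passed 1.5-fold and the median was 0.01, with *Cs*, citrate synthase, at 88.0 and 86.6 FPKM. The 6 pentose phosphate genes had a median of -0.04, and *G6pdx*, its first enzyme, had 42.4 and 40.3.

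In the wider lists of dioxygenase genes, single members outside the HIF list passed 1.5-fold. The 18 JmjC genes outside it held 1 and the 8 TET and ALKBH genes 1, both lower. The 12 hydroxylases outside it held 1 lower and 1 higher. Among all kept genes 2.32% were lower and 1.8% higher, and the difference from these shares was not tested. Among 19 JmjC genes the median was -0.05, and *Phf8* was the 1 member past 1.5-fold, from 3.62 to 1.85 FPKM (-0.68, against 0.39 in DMSO). *Kdm5c* had 20.9 and 19.9 FPKM, *Kdm5b* 39.6 and 39.3, and *Jarid2* 24.97 and 24.9. The H3K27 demethylases that GSK-J4 inhibits, and *Tet1* and *Tet2*, were not analysed here. Of 8 TET and ALKBH genes, *Alkbh2*, a DNA repair dioxygenase, was 1.5-fold lower, at 1.73 and 0.793 FPKM, and *Fto*, an RNA demethylase, had 23.04 and 23.3. Of 16 prolyl and lysyl hydroxylases, with a median of -0.07, 3 were lower by 1.5-fold or more (*Egln3*, *P4ha1* and *Plod2*) and 1 was higher (*P4htm*), beside 2.32% and 1.8% of all kept genes. *Egln3* and *P4ha1* are also on the HIF list. The 12 kept hydroxylases outside it had a median of -0.01, with 1 lower and 1 higher. *Plod2*, a lysyl hydroxylase of collagen, had 57.9 FPKM without and 37.7 with AA (-0.59), and *P4htm* had 0.214 and 1.30 (0.94). The minimum of 1 FPKM was reached by *P4htm* only with AA and by *Alkbh2* only without it. The filter therefore favoured the direction of both. Both ratios lay within -1.02 to 1.01, the spread given above for the lowest expression decile. *Slc23a2*, the sodium-dependent AA transporter SVCT2, had 11.8 and 13.6 FPKM (0.20), and no member of the 5 AA and dehydroascorbate transporters passed 1.5-fold.

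As a set, naive pluripotency genes stayed close to their level without AA, while single genes lay further away. The 26 naive pluripotency genes had a median of 0.10 and 17 lay above 0, beside 50.0% of all kept genes. *Pou5f1* (Oct4) had 510 FPKM without and 480 with AA (-0.07), *Nanog* 95.7 and 90.9 (-0.05), and *Sox2* 155 and 163 (0.10). *Prdm14*, a regulator of the naive state, had 5.80 and 5.93 (0.05). *Tcl1* had 36.1 and 47.0 (0.39), and *Tfcp2l1*, a naive-state transcription factor, 23.5 and 32.0 (0.45), and both lie outside the middle 95% of ratios at their expression level. *Tdgf1*, the Nodal co-receptor Cripto, was the 1 member past 1.5-fold, from 304 to 187 (-0.68). *Nodal* had 105 and 74.5 (-0.47), with 42.02 and 39.5 in DMSO (-0.04).
Of 14 formative and primed genes, *Etv4*, an ETS factor downstream of FGF signalling, was higher, from 2.32 to 6.07 FPKM (1.11), and *Fgf15* lower, from 3.15 to 0.948 (-1.07). *Etv4* was also higher in DMSO, from 1.12 to 5.83 (1.74), and *Fgf15* was also lower there, from 11.97 to 7.20 (-0.61). *Hoxc13* had 5.29 and 5.06 (-0.03), and the X-linked ubiquitin ligase gene *Rlim* 14.9 and 9.98 (-0.52). The 346 X-linked genes had a median of -0.02.

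The stress lists were shifted by small amounts. Of the 33 genes of ATF4 and the integrated stress response, 29 had a ratio above 0, beside 50.0% of all kept genes. Their median was 0.15, and none passed 1.5-fold in either direction. *Nupr1* had 46.9 FPKM without and 60.7 with AA (0.38), *Asns*, asparagine synthetase, 62.8 and 73.1 (0.23), and *Atf4* 257 and 279 (0.14). The 2 lowest members, *Ddit4* at -0.46 and *Stc2* at -0.31, are also on the HIF list. In DMSO 25 of 31 members were above 0, beside 4413 of all 8827 genes there, with a list median of 0.13.
The 25 NRF2 targets had a median of 0.11, against 0.04 in DMSO, and 20 were above 0, beside 50.0% of all kept genes. *Srxn1*, sulfiredoxin, had 31.4 and 43.4 (0.47), and *Gstp1*, a glutathione transferase, 28.7 and 36.6 (0.36). The 17 metallothionein and zinc transporter genes had a median of 0.13. *Mt1* had 1099 and 1309 (0.27) and *Mt2* 1528 and 1877 (0.32). *Slc30a6* (3.48 to 0.00971) and *Slc39a13* (1.81 to 3.78) were past 1.5-fold, and both were picked out after their values were seen.

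**Figure D4:**
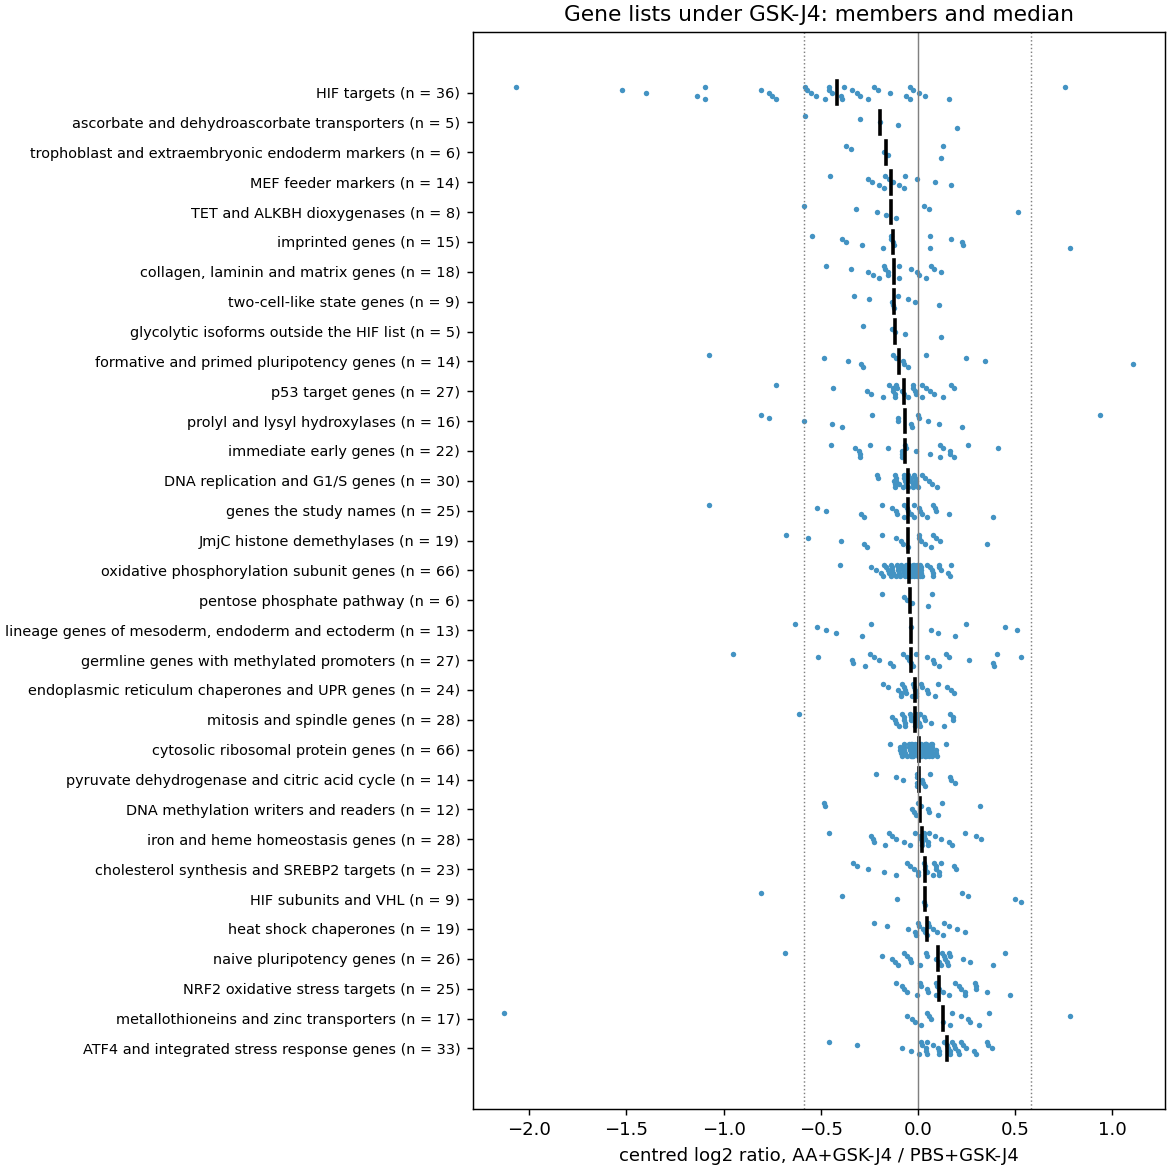
Points are the centred log2 ratios of the members of each gene list under GSK-J4, with the number kept in brackets, and black bars are list medians. The HIF target list has the lowest median, -0.42, and the ATF4 and integrated stress response list the highest, 0.15, while the ribosomal and oxidative phosphorylation genes form narrow bands at 0.01 and -0.04.

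Lists of cell growth and chromatin were near the median of all genes. The medians were -0.05 for 30 DNA replication genes, -0.01 for 28 mitosis genes, of which *Nuf2*, a kinetochore protein gene, was lower (8.293 to 4.998), 0.01 for 66 ribosomal protein genes and -0.04 for 66 oxidative phosphorylation genes. The replication genes formed a narrow set, from -0.21 to 0.10, with 24 of 30 below 0, beside 4582 of the 9165 kept genes. Chaperones gave medians of 0.05 for 19 heat shock genes and -0.02 for 24 genes of the endoplasmic reticulum. Iron and heme genes (28) had a median of 0.02, cholesterol synthesis genes (23) 0.04 and immediate early genes (22) -0.06, and no member of these 3 lists passed 1.5-fold.
The 27 germline genes with methylated promoters had a median of -0.03 under GSK-J4 and 0.15 in DMSO. *Tex14* was 1.5-fold lower (3.54 to 1.32) and none was higher. The 12 DNA methylation genes had a median of 0.01 and 9 two-cell-like state genes -0.12, with none past 1.5-fold. For 27 p53 targets it was -0.07, with *Fas* lower (4.46 to 2.24), and for 13 lineage genes -0.03, with *Wnt3* lower (3.04 to 1.58). *Igf2* (0.354 to 1.30) was higher among 15 imprinted genes with a median of -0.13. It reached the minimum of 1 FPKM only with AA, so at its level without AA it could be kept only by being higher. Its ratio lay within -1.02 to 1.01, the spread given above for the lowest expression decile. The 18 matrix genes had a median of -0.12, the 14 feeder markers -0.14, and the 6 kept trophoblast and endoderm markers -0.16, with none past 1.5-fold.

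Beyond the lists, the lowest and highest genes were taken from the 6197 that reached 5 FPKM in PBS+GSK-J4 or AA+GSK-J4. The 12 lowest included *Slc16a3*, *Bnip3*, *Ldha* and *Pgk1*. The lowest of all was *Ndufa4l2*, a mitochondrial protein gene that HIF is known to induce but that was not on the list. It had 21.0 FPKM without and 3.93 with AA (chromosome 10, 127514945 to 127522486, ratio -2.14), and 7.90 and 2.89 in DMSO (-1.15). *Mta1*, a subunit of the NuRD complex, had 5.58 and 0.635 (-1.99), with 6.21 and 0.894 in DMSO (-1.88). *Ext2*, a heparan sulfate polymerase, had 6.71 and 2.03 (-1.33) and 7.34 and 3.06 in DMSO (-0.99). *Igfbp2*, which binds insulin-like growth factors, had 117 and 51.3 (-1.15) and 154 and 103 in DMSO (-0.53). The others were *1190005I06Rik*, *Slc5a1*, *Flywch2* and *Ptk2*. *Ptk2*, focal adhesion kinase, had 9.73 and 3.84 (-1.13) but 8.83 and 7.57 in DMSO (-0.15). Of these 12 genes, 11 had a ratio below 0 in DMSO and 7 were at least 1.5-fold lower there, beside 1.8% of all genes in DMSO.

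The 12 highest genes were all below an FPKM of 6 in PBS+GSK-J4, where the spread was wide. *Stbd1*, a glycogen-binding protein gene, had 0.412 FPKM without and 5.54 with AA (2.23) and is listed at 0 in both DMSO libraries. *Fam49b* had 2.14 and 9.02 (1.69) but 9.37 and 6.67 in DMSO (-0.39). *Wnk1*, a kinase of ion transport, had 5.16 and 12.5 (1.15) and 6.56 and 7.48 in DMSO (0.21). The others were *Arhgef10l*, *Pcmt1*, *Lyrm5*, *Tmem101*, *Etv4*, *Plekhg1*, *Snapc4*, *Tgfbr1* and *Arhgap17*. In DMSO 5 of the 12 had a ratio above 0 and 3 were 1.5-fold higher, beside 2.46% of all genes there.

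Among genes with a mean FPKM of at least 20, the 6 that were 1.5-fold higher were *Fabp3*, *Rpl39l*, *Stard3nl*, *Krt42*, *Hexa* and *Renbp*, and 5 of them also had a ratio above 0 in DMSO. *Fabp3*, a fatty acid binding protein gene, had 41.8 FPKM without and 72.5 with AA (0.80), and 34.5 and 51.7 in DMSO (0.62). *Hexa*, a lysosomal hexosaminidase gene, had 32.4 and 48.9 (0.60), and 17.5 and 26.1 in DMSO (0.60). *Renbp*, which acts on N-acetylglucosamine, had 60.3 and 89.8 (0.58), and 29.9 and 44.01 in DMSO (0.59). *Rpl39l*, at 22.7 and 37.7 (0.73), is close in sequence to *Rpl39*, so its reads are uncertain. *Stard3nl* differed, at 15.8 and 25.7 under GSK-J4 (0.69) and 24.7 and 15.8 in DMSO (-0.57).
The 13 that were lower were the HIF list members *Bnip3*, *Ldha*, *Pgk1*, *Tpi1*, *Pfkl* and *Aldoa*, together with *Igfbp2*, *Upp1*, *Tdgf1*, *Hes6*, *1500009L16Rik*, *Gpx3* and *Plod2*. *Upp1*, uridine phosphorylase, had 97.4 FPKM without and 54.2 with AA (-0.81), and 185 and 120 in DMSO (-0.57). *Gpx3*, a secreted glutathione peroxidase gene, had 57.7 and 37.3 (-0.60), and 11.2 and 9.57 in DMSO (-0.16). *Hes6* had 26.2 and 15.9 (-0.67), and 16.8 and 15.1 in DMSO (-0.09).

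Over all 8645 genes kept in both settings, the AA ratios under GSK-J4 and in DMSO had a Spearman correlation of 0.18, and of 0.29 over the 2455 genes with a mean FPKM of at least 20 under GSK-J4. This is a description across genes, which are not independent replicates, and the ratios share the deposited tables. Of the 167 genes 1.5-fold lower under GSK-J4 in this set, 34 (20.4%) were also lower in DMSO, which is 23.9% of the 142 lower there. Of the 132 genes higher under GSK-J4, 31 (0.359% of the set) were also higher in DMSO, which is 23.5% of the 132 and 16.1% of the 193 higher there. In the opposite direction, 11 genes were higher under GSK-J4 and lower in DMSO, and 21 were lower under GSK-J4 and higher in DMSO. The 8 genes with the lowest ratios shared by both settings were *Mta1*, *Slc16a3*, *Ndufa4l2*, *Bnip3*, *Ldha*, *Ext2*, *Tpi1* and *Pfkl*. The 8 with the highest shared ratios were *Etv4*, *Etl4*, *Brpf3*, *Arhgap17*, *Zfp217*, *Zfp131*, *Rpl39l* and *Gtpbp6*. Apart from *Rpl39l*, these had a mean FPKM below 5 under GSK-J4, such as *Gtpbp6*, a GTP-binding protein gene, at 2.18 and 4.07 FPKM (0.69) and 1.71 and 6.76 in DMSO (1.57).

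**Figure D5:**
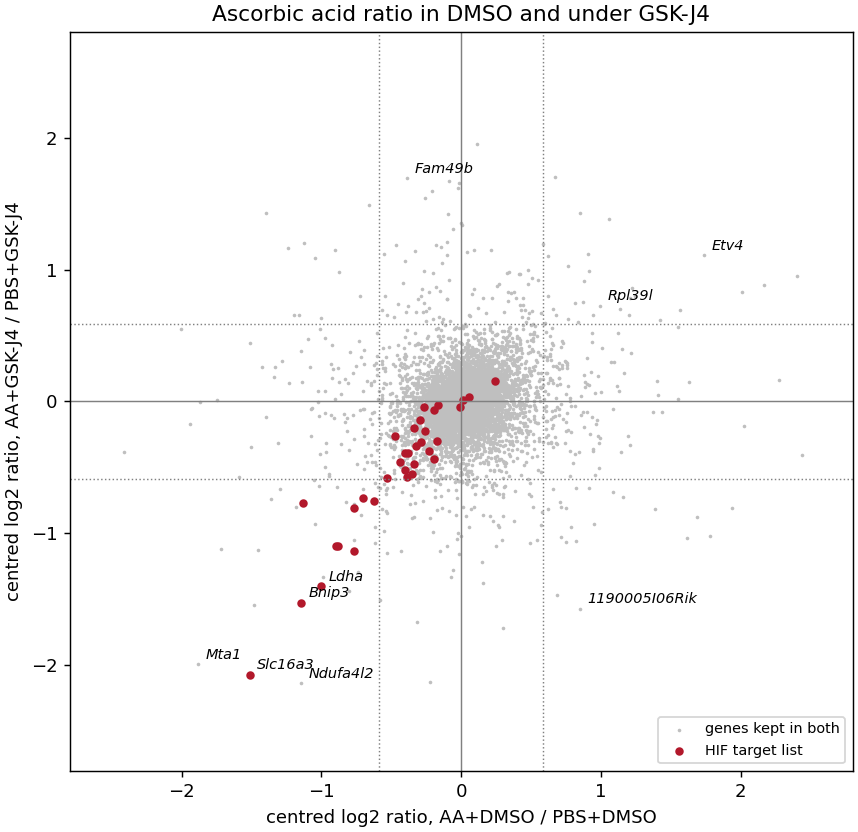
Each grey point is 1 of 8645 genes, with the centred log2 ratio of AA to PBS in DMSO on the horizontal axis and under GSK-J4 on the vertical axis, and red points are HIF target genes. The lower left corner holds *Slc16a3*, *Ndufa4l2*, *Mta1*, *Bnip3* and *Ldha*, and *1190005I06Rik* lies at the lower right with 0.85 in DMSO and -1.57 under GSK-J4.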

How the data were processed

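RNA-Seq was performed by the authors on 1 library per condition. They removed duplicates from single-end reads, aligned them with TopHat2 to mm10 and estimated expression with Cufflinks2, as their methods and the labels give it. Removing duplicates of single-end reads limits the counts of abundant short mRNAs. The 2 deposited tables hold FPKM for 11033 coding sequence groups (9936 gene names). Their FPKM headings read log10, but the values are linear. Fold changes and p-values of the authors' own comparisons were not used.

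FPKM was summed per gene name. Left out were 157 genes with a failed estimate and 17 names (23 coding sequence groups) turned into dates. Ratios used a pseudocount of 1, a minimum of 1 FPKM in 1 of the libraries compared and centring on the median. They were computed with Python 3.11.15, numpy 2.4.6 and pandas 2.3.3. The code was run on simulated data with large changes in genes away from the minimum and with less noise than the real ratios. That run checks the computation only, and does not bear on calls at 1.5-fold or at low FPKM. With 1 library a side, folds of 1.5 and 2 took the place of tests. Depth is known only relatively, from whole-read steps. Genes named were the 12 highest and 12 lowest of those reaching 5 FPKM, the 8 with the largest shared ratio in each direction, the genes the study names, and list members past 1.5-fold or needed to describe a list by role, others being marked. Members and lists were chosen with earlier results of these data known. Promoters came from RefSeq (GRCm38.p6). Alternatives changed the pseudocount, filter, scaling and summing.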

Additional observations from a re-analysis of the deposited data

Results flagged for a closer look

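*1190005I06Rik* was the only named gene whose AA ratio passed 1.5-fold in opposite directions in the 2 settings. It had 10.6 FPKM in PBS+GSK-J4 and 2.87 in AA+GSK-J4, and 7.995 in PBS+DMSO and 14.7 in AA+DMSO, and the ratio under GSK-J4 minus that in DMSO was -2.42 on the log2 scale. The difference was not tested, since each condition is 1 library.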

How the results depend on the processing

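The counts depended on how low values were treated. With a pseudocount of 0.1, the 1.5-fold counts were 277 higher and 402 lower, and the 2-fold counts 127 and 149. A pseudocount of 5 left 21 and 24 at 1.5-fold, and 0 and 8 at 2-fold. A stricter filter of 5 FPKM gave 42 and 72, and 11 and 17. A filter of 1 FPKM that both libraries had to pass gave 85 and 136, and 12 and 20. With 1 value per coding sequence group, 269 were 1.5-fold higher and 313 lower, and 92 and 83 at 2-fold. The level of a mean FPKM of at least 20, chosen after seeing the data, gave 6 and 13 at 1.5-fold. These alternatives change which values can reach the fold by construction. The Spearman correlation moved by less than 0.1 under each alternative. Under the 11 alternatives, the median of the HIF list ran from -0.45 to -0.31 and its count of genes 1.5-fold lower from 7 to 12, and the median of the integrated stress response list from 0.13 to 0.16. Of 50 named genes past 1.5-fold, none changed direction, and 31 of 538 values fell short of 1.5-fold, 21 of them with a pseudocount of 5. No paired analysis was possible because each group is 1 library. Depth limits what low genes can show, and a single library per condition leaves the spread between cultures unmeasured.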
